A study of Mus musculus with 6 samples.

Results

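The bone marrow transcriptome of mice given Onway and of untreated mice held 78 genes for mitochondrial ribosomal proteins, 49 of the large subunit (symbols beginning with Mrpl) and 29 of the small subunit (symbols beginning with Mrps). They were taken by symbol from the 56496 genes of the deposited table, with no use of their values. In Onway libraries 73 of the 78 had a lower mean level than in Control libraries, and their summed level was 0.832 times that of Control libraries. This was not particular to them, since fold changes were also negative in 77 of 77 tested nuclear respiratory chain genes and 85 of 87 cytosolic ribosomal protein genes. The groups did not overlap in 26 of the 78 genes, beside 11.5% of all tested genes that were lower in Onway without overlap, and no member passed the test across all genes. In a fit over single transcripts 1 passed, a short form of Mrps33, which was measured in all 3 Onway libraries and listed at 0 in all 3 Control libraries. The authors' deposited group means contain a further library, and the value they leave for this form ran the opposite way. For the members, the further value was lower in Onway in 48 of the 78. It summed to 2560 TPM in Onway and 2729 TPM in Control.

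The mitochondrial ribosome translates the mRNAs encoded by mitochondrial DNA, all of which specify subunits of the respiratory chain or of ATP synthase. Its rRNAs are transcribed in the mitochondrion, whereas all of its proteins are encoded in the nucleus, made in the cytosol and imported, and are then assembled with the rRNAs by dedicated factors. The small subunit binds the mRNA and decodes it, and the large subunit joins the amino acids and releases the growing chain through an exit tunnel at the inner membrane. In bone marrow the demand for this machinery differs between lineages, since maturing red cells discard both mitochondria and ribosomes.

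The libraries came from bone marrow cells of female Balbc mice whose 4T1 tumour, grown from a mouse mammary carcinoma line, had been resected. Onway was given by gavage for 2 weeks to the mice of 3 libraries (Onway 1, 2 and 3, labelled day 14), and the mice of the other 3 (Control 4, 5 and 6, labelled day 0) were not treated, so the treatment cannot be told apart from the labelled day. All libraries are labelled WT, and neither what Onway contains nor the age of the mice is stated in the labels. Whether each library is from a separate mouse is not stated either, so the p-values rest on the spread between libraries, which may be technical.

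The table gave TPM, a transcript's abundance corrected for its length and scaled so that each library sums to 1e+06, and the read depth behind the values is unknown. The libraries listed 13354 to 13905 genes at 1 TPM or more in Onway and 13872 to 14252 in Control, and haemoglobin genes took 9.38% to 33.9% of TPM in Onway and 11.6% to 26.6% in Control. The tissue label was matched by abundant haemoglobin and neutrophil transcripts, but the groups also differed in markers of other cells. Of markers of megakaryocytes and platelets, 8 of 8 tested genes passed at a lower level in Onway, with sums of 91.9 to 149 TPM in Onway and 1915 to 2161 TPM in Control. The sums were 17.3 to 24.8 TPM in Onway and 736 to 4758 TPM in Control for skeletal muscle (9 of 10 passed, lower), 57.0 to 77.2 TPM in Onway and 725 to 1890 TPM in Control for bone (8 of 9), and 46.1 to 64.3 TPM in Onway and 258 to 448 TPM in Control for stroma and endothelium (9 of 10). Neutrophil precursor markers summed to 2116 to 4432 TPM in Onway and 4231 to 8345 TPM in Control, with none of 5 passing, and cycling-cell markers to 1604 to 1674 TPM in Onway and 1416 to 1994 TPM in Control, with none of 10 passing. B cell markers summed to 256 to 803 TPM in Onway and 181 to 272 TPM in Control, with none of 8 passing. No marker on these lists was at 0 in every library of a group. In bulk RNA, fewer cells of a type and less RNA per cell cannot be told apart, and the part of these cells in the values that follow was not tested.

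Large subunit genes summed to 1585, 1830 and 1478 TPM in Onway 1, 2 and 3, against 1892, 2097 and 1856 TPM in Control 4, 5 and 6. Every Control library lay above every Onway library, with Onway 2 nearest to the Control libraries. The group means of the sum were 1631 ± 181 TPM in Onway and 1948 ± 130 TPM in Control (SD, n = 3 each), a ratio of 0.837. Small subunit genes summed to 756, 898 and 738 TPM in Onway 1, 2 and 3, against 954, 1031 and 930 TPM in Control 4, 5 and 6. The order of the libraries was again without overlap between groups, and the means of the sum were 797 ± 88.0 TPM in Onway and 972 ± 52.8 TPM in Control (SD, n = 3 each), a ratio of 0.821. The ratio of the large to the small subunit sum was 2.05 ± 0.046 in Onway and 2.00 ± 0.027 in Control (SD, n = 3 each), with overlapping ranges. Together the 78 genes took 0.243% of TPM in Onway and 0.292% in Control. The haemoglobin share was 33.9% in Onway 3, the library with the lowest sum, and 26.6% in Control 4, whose sum was second among the Control libraries. With the libraries rescaled without haemoglobin genes the ratios of the sums were 0.843 for the large and 0.827 for the small subunit.

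**Figure D1:**
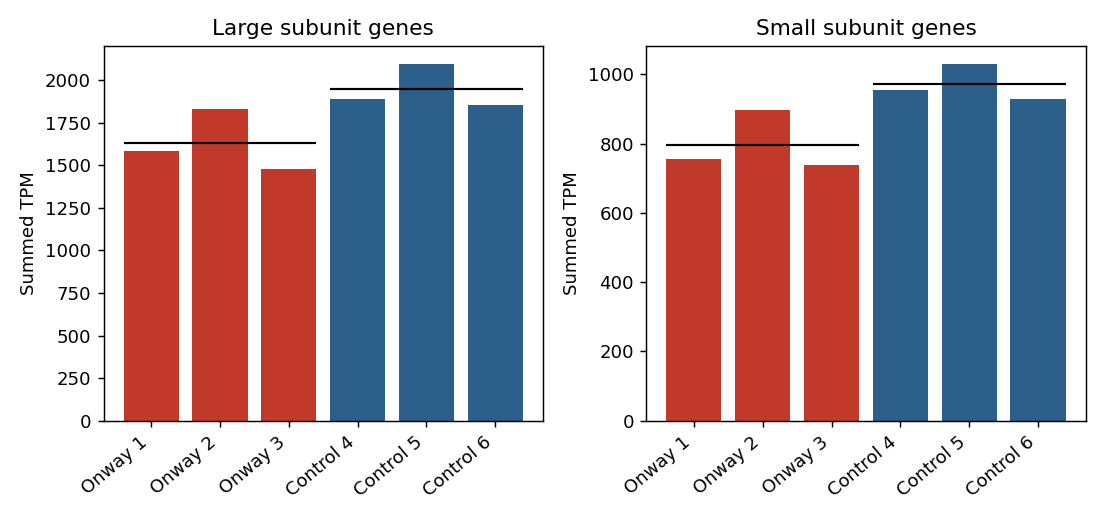
Summed TPM of the 49 large subunit genes (left) and the 29 small subunit genes (right) in each library, Onway in red and Control in blue, with a black line at each group mean. In both panels the 3 Onway bars stand below the 3 Control bars, at 1478 to 1830 TPM in Onway and 1856 to 2097 TPM in Control for the large subunit.

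All 78 genes reached the minimum, an average of 1 TPM over all libraries, and entered the test, which was limma on log2(TPM + 1) over 14192 genes with Benjamini-Hochberg adjustment and a threshold of 0.05. By limma, 0 of the 78 passed in either direction, where 2.99% of all tested genes passed at a lower and 0.233% at a higher level in Onway. At an unadjusted limma p under 0.05 there were 12 members, 7 of the large and 5 of the small subunit and all lower in Onway, or 15.4% of them, beside 13.4% of all tested genes in either direction and 8.42% in the lower direction. The groups did not overlap in 26 members, 17 large and 9 small, each lower in Onway, beside 11.5% of all genes that were lower without overlap. No member was higher without overlap, beside 6.95% of all genes. The fold change was negative in 46 of 49 large and 27 of 29 small subunit genes, beside 46.4% of all tested genes.

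The median log2 fold change (Onway over Control, on log2(TPM + 1), which understates changes of low genes) was -0.26 over the 49 large subunit genes and -0.23 over the 29 small subunit genes, beside 0.03 over all tested genes. Single members ranged from -0.60 for Mrpl42 to 0.07 for Mrps2. The range was -7.68 to 7.26 over all 14192 tested genes, a far larger set. Within groups the members' median SD of log2(TPM + 1) was 0.18, beside 0.26 over all tested genes. The SD was 0.16 in nuclear respiratory chain genes and 0.14 in cytosolic ribosomal protein genes. The median level was 28.0 TPM in the members and 10.8 TPM over all tested genes. Control 5 was the library with the highest level for 39 of the 78 genes and Onway 3 the library with the lowest for 44. This was not counted over all genes. Their median log2 difference from the Control mean was also lowest in Onway 3, at -0.16, and was -0.03 in Control 5. The members are not replicates of the treatment, since all were measured in the same 6 libraries.

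**Figure D2:**
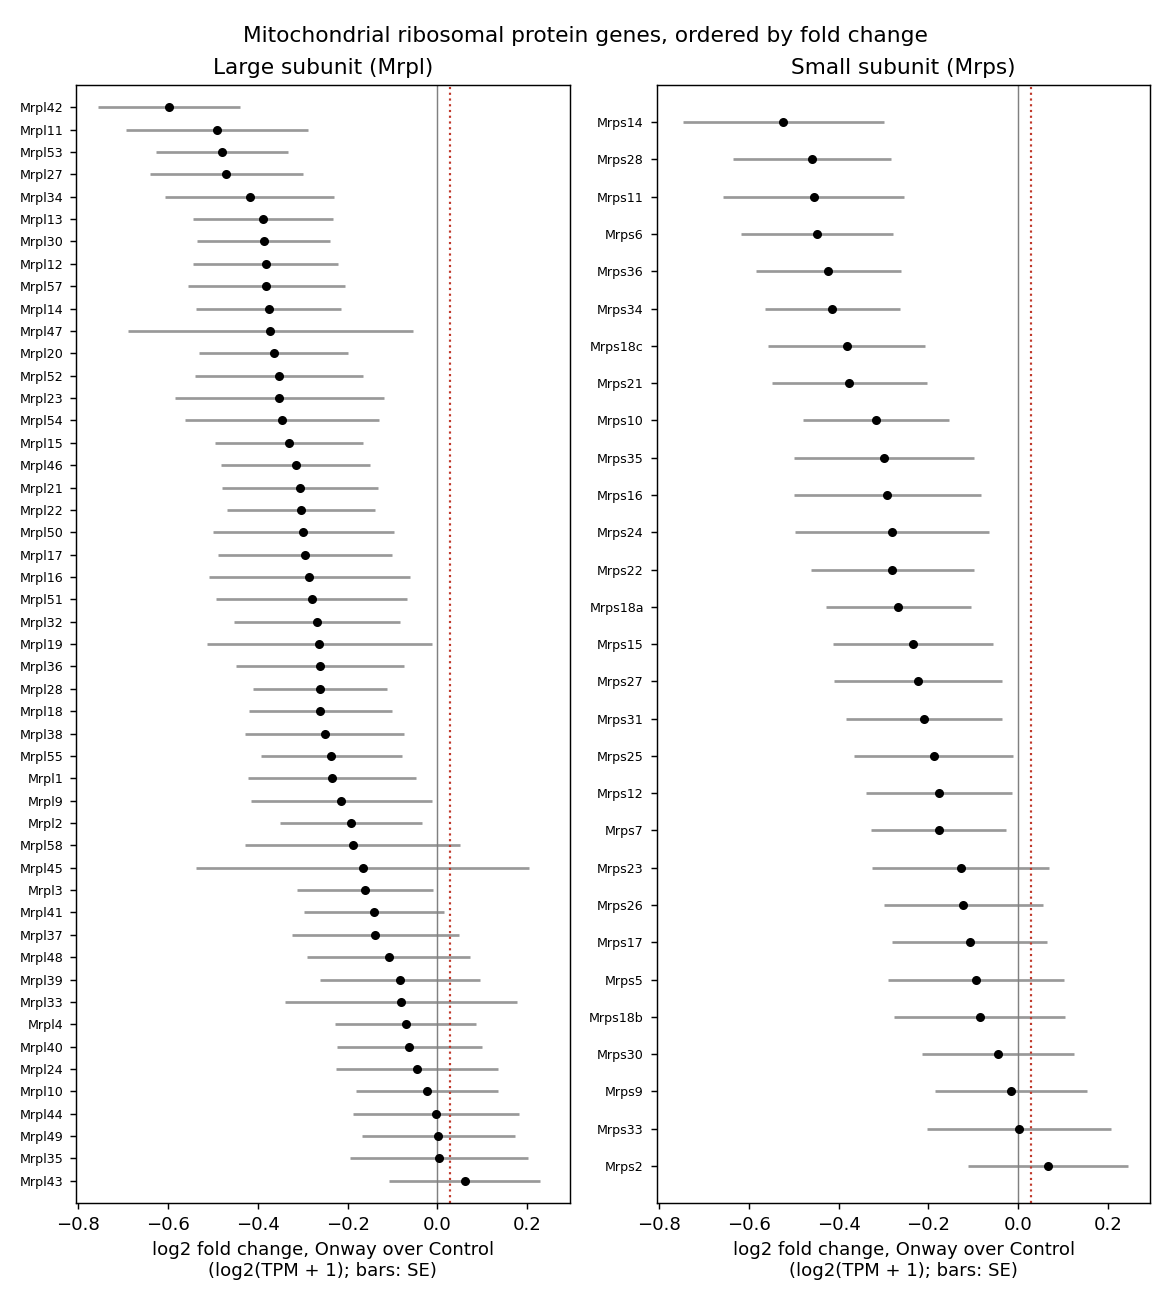
Log2 fold change of each of the 78 genes (Onway over Control, points, with bars of 1 standard error), large subunit on the left and small subunit on the right, ordered from the lowest at the top. The solid line marks no difference and the dotted red line the median of all tested genes, 0.03; the points run from -0.60 for Mrpl42 to 0.07 for Mrps2.

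Levels differed more between genes than between groups. TPM is corrected for length, so genes can be compared on it, and the median member stood at 28.0 TPM, averaged over the 6 libraries. There were 64 members between 10 and 100 TPM, 11 below and 3 above. The highest were Mrpl33, a small bacterial-type protein of the large subunit, with a mean of 251 TPM, Mrps21, a small subunit protein of bacterial type, with 155 TPM, and Mrpl52, found only in mitochondrial ribosomes, with 112 TPM. The lowest was Mrpl23, a protein at the rim of the exit tunnel, with a mean of 3.76 TPM. The ratio of the group means (Onway over Control), by contrast, ran only from 0.657 to 1.06 over the 78 genes.

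Among large subunit genes the lowest fold change belonged to Mrpl42 (chr10:95480805-95501940, minus strand), a protein with no bacterial counterpart. It was at 63.7, 68.3 and 59.8 TPM in Onway 1, 2 and 3, against 90.4, 94.5 and 107 TPM in Control 4, 5 and 6. The groups were well apart, with the highest Onway library below the lowest Control library. Its log2 fold change was -0.60 (SE 0.16) with a limma adjusted p of 0.12, the smallest of all 78 members.

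The stalk of the large subunit, which recruits the GTP-driven translation factors, had a summed level of 129, 160 and 133 TPM in Onway 1, 2 and 3, against 178, 193 and 166 TPM in Control 4, 5 and 6. All 5 of its genes had a negative fold change, with a median of -0.38, and none passed after adjustment. An unadjusted limma p under 0.05 was found for 3 of the 5, beside 13.4% of all tested genes. Mrpl53, at the stalk base, was at 30.2, 26.7 and 30.6 TPM in Onway 1, 2 and 3, against 41.6, 42.6 and 38.7 TPM in Control 4, 5 and 6. This was a clear separation on little spread, with a log2 fold change of -0.48 (SE 0.15, limma adjusted p = 0.19). Mrpl11, which forms the base of the stalk with the rRNA, was at 14.5, 20.6 and 18.3 TPM in Onway 1, 2 and 3, against 25.5, 30.0 and 20.8 TPM in Control 4, 5 and 6. Here Onway 2 and Control 6 nearly met, and the log2 fold change was -0.49 (SE 0.20, limma adjusted p = 0.35). Mrpl12, the mobile stalk protein that touches the factors, stood at 26.3, 33.8 and 28.0 TPM in Onway 1, 2 and 3, against 39.7, 39.8 and 35.8 TPM in Control 4, 5 and 6. Mrpl10, which holds Mrpl12 on the ribosome, did not follow them. It was at 27.2, 29.1 and 22.7 TPM in Onway 1, 2 and 3, against 27.7, 26.3 and 25.9 TPM in Control 4, 5 and 6, with a log2 fold change of -0.02 (SE 0.16).

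Other parts of the large subunit gave smaller or more variable differences. The 6 genes around the exit tunnel had a median log2 fold change of -0.30 and overlapping groups in every case. Mrpl45, which ties the ribosome to the inner membrane at the tunnel exit, had the widest spread of the large subunit genes. It was at 29.9, 19.2 and 13.5 TPM in Onway 1, 2 and 3, against 14.4, 23.5 and 32.9 TPM in Control 4, 5 and 6. Most of this came from assembled transcripts, without which it was at 2.78, 2.10 and 3.43 TPM in Onway 1, 2 and 3, against 3.84, 3.50 and 7.30 TPM in Control 4, 5 and 6, with a log2 fold change of -0.60 (SE 0.28, limma adjusted p = 0.41) in place of -0.17 (SE 0.37). Without them its groups no longer overlapped. Mrpl47, another protein of the tunnel exit, varied almost as much, at 2.71, 7.61 and 5.50 TPM in Onway 1, 2 and 3, against 7.77, 6.87 and 5.52 TPM in Control 4, 5 and 6. Mrpl33 completed the 3 most variable, at 249, 300.5 and 182 TPM in Onway 1, 2 and 3, against 198, 319 and 255 TPM in Control 4, 5 and 6. For these 3 genes the libraries of a group differed more from each other than the group means did. The 5 genes of the central protuberance, the crown that faces the small subunit, had a median of -0.25.

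Mrpl27, a bacterial-type protein near the catalytic centre, was at 22.6, 30.4 and 25.4 TPM in Onway 1, 2 and 3, against 37.4, 38.6 and 33.3 TPM in Control 4, 5 and 6. Mrpl34, also of bacterial type, was at 26.5, 38.6 and 33.7 TPM in Onway 1, 2 and 3, against 45.5, 47.7 and 38.8 TPM in Control 4, 5 and 6. Both were lower in every Onway library, at log2 fold changes of -0.47 (SE 0.17) and -0.42 (SE 0.19), though Onway 2 and Control 6 were almost equal for Mrpl34. Mrpl52 stood at 79.2, 113 and 106 TPM in Onway 1, 2 and 3, against 131, 126 and 120.01 TPM in Control 4, 5 and 6, again with no overlap. At the other end, 5 large subunit genes had fold changes near 0 (Mrpl43, Mrpl35, Mrpl49, Mrpl44 and Mrpl10), from 0.06 for Mrpl43 to -0.02 for Mrpl10. Mrpl43 was at 28.7, 34.6 and 26.0 TPM in Onway 1, 2 and 3, against 26.0, 29.8 and 29.2 TPM in Control 4, 5 and 6. The 30 large subunit proteins with bacterial counterparts had a median log2 fold change of -0.28 and the 19 without had one of -0.19, a difference that was not tested.

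In the small subunit, Mrps14 had the lowest fold change, -0.52 (SE 0.22, limma adjusted p = 0.37), and a wide spread. This bacterial-type protein of the subunit head was at 30.9, 44.8 and 29.1 TPM in Onway 1, 2 and 3, against 40.7, 58.3 and 51.7 TPM in Control 4, 5 and 6, so that Onway 2 exceeded Control 4. Mrps28 was at 19.9, 24.8 and 22.8 TPM in Onway 1, 2 and 3, against 31.9, 35.8 and 26.7 TPM in Control 4, 5 and 6. Mrps6, whose bacterial counterpart sits on the platform of the subunit, was at 6.43, 6.08 and 6.03 TPM in Onway 1, 2 and 3, against 10.1, 8.66 and 7.72 TPM in Control 4, 5 and 6. Neither overlapped between groups, with log2 fold changes of -0.46 (SE 0.18) for Mrps28 and -0.45 (SE 0.17) for Mrps6, and limma adjusted p-values of 0.30 for both. Mrps11 had a log2 fold change of -0.46 (SE 0.20), and its gene overlaps that of Mrpl46 (-0.32, SE 0.17), another member, in opposite directions at chr7:78783119-78792989 and chr7:78775236-78783531. Mrps36 was at 29.5, 35.4 and 34.5 TPM in Onway 1, 2 and 3, against 50.1, 41.6 and 42.6 TPM in Control 4, 5 and 6. It carries a ribosomal symbol, but its protein is known as a component of the oxoglutarate dehydrogenase complex of the citric acid cycle.

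Mrps21 was at 138, 139 and 125 TPM in Onway 1, 2 and 3, against 155, 199 and 171 TPM in Control 4, 5 and 6, and Mrps15 at 51.1, 56.9 and 40.2 TPM in Onway 1, 2 and 3, against 58.4, 60.2 and 54.7 TPM in Control 4, 5 and 6. Of these abundant small subunit genes, Mrps21 did not overlap between groups (log2 fold change -0.38, SE 0.17) and Mrps15 did (-0.23, SE 0.18). Mrps24 and Mrps16 had, with Mrps14, the widest spreads of the small subunit, and log2 fold changes of -0.28 (SE 0.22) and -0.29 (SE 0.21). The genes nearest to or above 0 were Mrps2, which was at 10.4, 11.2 and 8.40 TPM in Onway 1, 2 and 3, against 9.33, 10.5 and 8.54 TPM in Control 4, 5 and 6, and Mrps33, Mrps9, Mrps30 and Mrps18b, with log2 fold changes between 0.00 and -0.09. The 16 small subunit proteins with bacterial counterparts had a median of -0.29 and the 10 named as specific to mitochondria one of -0.20, which again was not tested.

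The 3 paralogs Mrps18a, Mrps18b and Mrps18c descend from the bacterial S18 protein, and the ribosome uses each at its own place: Mrps18c in the bacterial position, Mrps18b elsewhere in the small subunit and Mrps18a in the large subunit. Mrps18c was at 59.1, 76.8 and 63.5 TPM in Onway 1, 2 and 3, against 91.1, 91.9 and 77.0 TPM in Control 4, 5 and 6. Its groups did not overlap, though Onway 2 and Control 6 nearly met, with a log2 fold change of -0.38 (SE 0.17, limma adjusted p = 0.41). Mrps18a had a log2 fold change of -0.27 (SE 0.16) and Mrps18b one of -0.09 (SE 0.19), with overlapping groups in both. Mrps30, like Mrps18a, has a protein known to belong to the large subunit despite its symbol. With both counted there, the ratio of the sums was 0.837 for the large and 0.820 for the small subunit.

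Another 5 mitochondrial ribosomal proteins carry other symbols, and their genes also had negative fold changes (5 of 5, median -0.19, 0 passing by limma and 0 with an unadjusted p under 0.05). Chchd1, a small subunit protein, was at 44.9, 68.7 and 49.6 TPM in Onway 1, 2 and 3, against 65.8, 82.2 and 70.7 TPM in Control 4, 5 and 6. Gadd45gip1 of the large subunit and Ptcd3 of the small subunit had log2 fold changes of -0.25 (SE 0.22) and -0.19 (SE 0.16). None of these 5 was separated between groups.

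The genes that build and serve the mitochondrial ribosome lay closer to 0. Of 25 assembly factors 24 were tested and none passed by limma, with a median log2 fold change of -0.08. An unadjusted limma p under 0.05 was found for 2 (8.33%), beside 13.4% of all tested genes. These 2 genes went in opposite directions. Mpv17l2, which acts in assembly of the large subunit, was at 16.8, 17.97 and 19.0 TPM in Onway 1, 2 and 3, against 26.5, 24.3 and 25.8 TPM in Control 4, 5 and 6, and had a log2 fold change of -0.49 (SE 0.15, limma adjusted p = 0.18). Mettl17, a factor for the small subunit, was at 12.9, 18.2 and 13.7 TPM in Onway 1, 2 and 3, against 11.5, 9.69 and 9.58 TPM in Control 4, 5 and 6, and had a log2 fold change of 0.49 (SE 0.19, limma adjusted p = 0.31). Malsu1, which binds the large subunit, came next with -0.37 (SE 0.20). The untested one, Ybey, was below 1 TPM on average.

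Translation factors (17 genes) had a median log2 fold change of -0.05, mitochondrial aminoacyl-tRNA synthetases (20 genes) one of -0.01, and genes for replication and transcription of mitochondrial DNA (10 genes) one of 0.04. By limma 0 genes of these 3 lists passed. Of the translation factors 1 (5.88%), Slirp, had an unadjusted limma p under 0.05, beside 13.4% of all tested genes. Slirp, which stabilises mitochondrial mRNAs, was at 9.78, 12.2 and 6.36 TPM in Onway 1, 2 and 3, against 14.5, 18.2 and 11.7 TPM in Control 4, 5 and 6. The elongation factor gene Tsfm had a log2 fold change of -0.44 (SE 0.19) and the recycling factor gene Mrrf one of 0.45 (SE 0.22). By p, the synthetase list was led by Pars2 (0.44, SE 0.22), Qrsl1 (0.38, SE 0.19) and Rars2 (-0.32, SE 0.18) on the log2 scale, and the list for mitochondrial DNA by the polymerase genes Polg (0.31, SE 0.16), Polrmt (0.33, SE 0.18) and Polg2 (0.34, SE 0.21). Of 9 regulators of mitochondrial gene programmes 7 were tested, none passed by limma or had an unadjusted p under 0.05, and the median was 0.14, with Nrf1 at 0.30 (SE 0.19), Yy1 at 0.18 (SE 0.17) and Gabpa at 0.18 (SE 0.21). The untested regulators were Ppargc1a and Ppargc1b.

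The mitochondrial ribosome translates the mRNAs of the 13 protein-coding genes of mitochondrial DNA. These genes summed to 26640, 32044 and 20020 TPM in Onway 1, 2 and 3, against 28831, 23698 and 26374 TPM in Control 4, 5 and 6. These sums overlapped, and mt-Atp8 made up most of each, at 11296 to 18917 TPM in Onway and 12847 to 15428 TPM in Control. How reads were assigned between these genes is not stated in the labels, so their single values are less certain. The median log2 fold change of the 13 was -0.09. Of the 13, 1 passed, beside 2.99% of all tested genes at a lower level in Onway. This was mt-Co3, a core subunit of cytochrome oxidase, at 261, 291 and 306 TPM in Onway 1, 2 and 3, against 772, 520 and 501 TPM in Control 4, 5 and 6 (log2 fold change -1.04, SE 0.21, limma adjusted p = 0.047). This call was lost without any 1 of the 6 libraries, at limma adjusted p-values from 0.073 (without Control 5) to 0.15 (without Onway 2). Next came mt-Nd3 at -1.05 (SE 0.22, limma adjusted p = 0.051), which passed under 5 of the alternatives, at limma adjusted p-values from 0.034 (median-centred libraries) to 0.045 (log2(TPM + 0.1)). After mt-Nd3 by p came mt-Atp6 at -0.93 (SE 0.25, limma adjusted p = 0.13). The value left by the authors' means beyond the 3 libraries ran the other way for mt-Nd3, at 356 TPM in Onway and 131 TPM in Control. It ran the same way for mt-Co3, at 215 TPM in Onway and 835 TPM in Control. For mt-Atp6 it also ran the same way, at 210 TPM in Onway and 384 TPM in Control. The 2 mitochondrial rRNAs, the RNA core of the ribosome, had log2 fold changes of -0.15 and -0.19, and neither passed.

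Negative fold changes were also frequent in other gene families. The 77 tested nuclear genes for subunits of the respiratory chain and ATP synthase all had negative fold changes, with a median of -0.37. An unadjusted limma p under 0.05 was found for 30 (39.0%), beside 13.4% of all tested genes and 8.42% in the lower direction. Without overlap between groups, 52 of the 77 were lower in Onway, beside 11.5% of all tested genes. By limma 1 of the 77 passed, beside 2.99% of all tested genes at a lower level. It was Ndufa5, a subunit of the first respiratory complex, named after its value was seen, with a log2 fold change of -0.96 (SE 0.15, limma adjusted p = 0.016). Its adjusted p was 0.079 without Onway 1, 0.073 without Control 6, 0.053 without Control 4 and 0.052 without Onway 2. The 87 tested genes for cytosolic ribosomal proteins had negative fold changes in 85 cases, with a median of -0.16, and none passed by limma. Of them 5 (5.75%) had an unadjusted limma p under 0.05, beside 13.4% of all tested genes. Without overlap, 24 of the 87 were lower in Onway, beside the same 11.5%. The mitochondrial ribosomal protein genes, at a median of -0.26, lay between the 2 families, and the differences between the families were not tested.

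**Figure D3:**
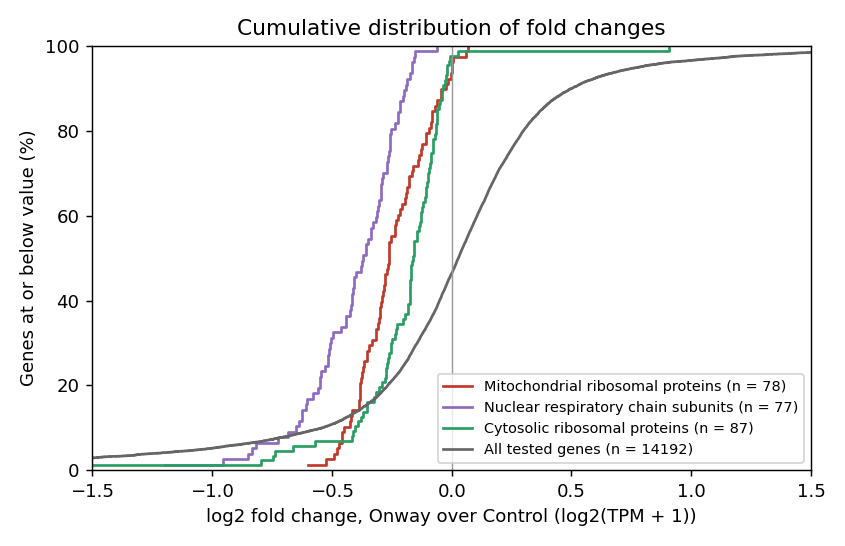
Cumulative share of genes (vertical axis, %) at or below each log2 fold change (horizontal axis, Onway over Control, drawn from -1.5 to 1.5) for the 78 mitochondrial ribosomal protein genes, 77 nuclear respiratory chain genes, 87 cytosolic ribosomal protein genes and all 14192 tested genes. All 3 families lie mostly left of 0, with medians of -0.26, -0.37 and -0.16, while all tested genes cross their median at 0.03.

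The members' transcripts are short, and fold changes in these libraries ran with length. The abundance-weighted transcript length had a median of 1121 bases over the members and 2487 bases over the tested coding genes. Over all tested coding genes the median log2 fold change was -0.19 for lengths from 500 to 1000 bases, -0.10 from 1000 to 1500 bases, 0.03 from 2000 to 3000 bases and 0.17 over 5000 bases. The members had medians of -0.33 for the 28 genes from 500 to 1000 bases, -0.26 for the 28 from 1000 to 1500 bases and -0.19 for the 12 from 1500 to 2000 bases. In each of these 3 classes the members' median was below that of coding genes of like length. The part of length in the result was not tested.

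**Figure D4:**
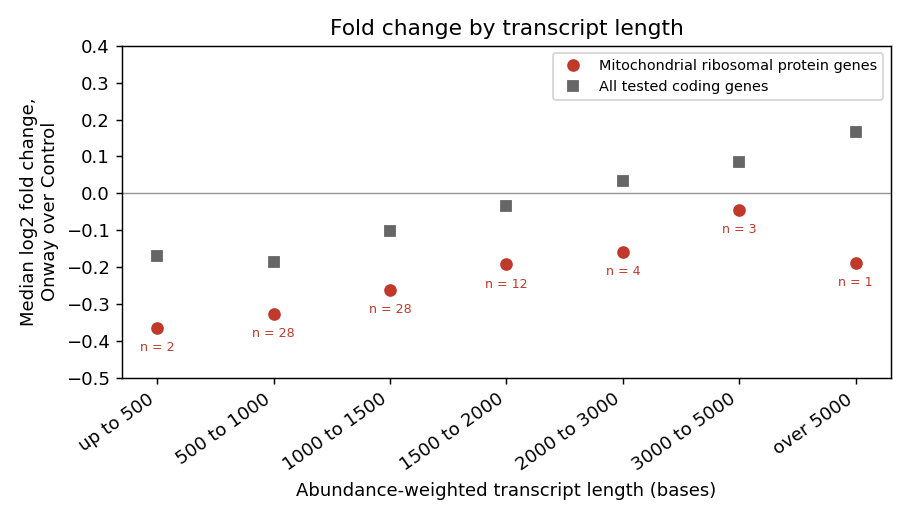
Median log2 fold change (Onway over Control) by class of abundance-weighted transcript length in bases, for the members (red circles, with their number) and for all tested coding genes (grey squares). Coding genes run from -0.17 in the shortest class to 0.17 in the longest, and the members lie below them in every class, with 1 to 4 members in the shortest class and in each class over 2000 bases.

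The 78 genes lie on 17 chromosomes, with at most 11 on 1 chromosome (chromosome 11). A coding gene starts within 1000 bases on the opposite strand, facing away, for 18 members (23.1%), beside 10.7% of tested coding genes. Examples are Mrps18c and Helq with starts 29 bases apart, Mrpl54 and Apba3 with 26, Mrpl49 and the cytosolic ribosomal protein gene Fau with 59, and Mrps12 and the mitochondrial seryl-tRNA synthetase gene Sars2 with 172. A coding gene overlaps 26 members (33.3%), beside 26.2% of tested coding genes. Whether counting used the strand is not stated in the labels, so the values of these 26 are less certain, among them Mrpl27, Mrpl33, Mrpl53, Mrps6 and Mrps11.

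Short motifs recur in part of the members' promoters. RefSeq promoter sequences (build GRCm38.p6, from 250 bases before to 50 after the start) were found for 69 of the 78 genes by symbol, and motifs were searched as exact letters on both strands. The ETS motif CCGGAAG, bound by the GABP factor among others, occurred in 26 of the 69 (37.7%). It occurred in 9.93% of all 27025 gene symbols with a promoter, tested here or not. The core of the NRF1 site, GCATGCGC, occurred in 8 (11.6%), beside 3.05%, and the YY1 motif AAGATGGCG also in 8 (11.6%), beside 1.64%. The E-box CACGTG occurred in 5 (7.25%), beside 8.09%. At least 1 of the ETS, NRF1 and YY1 motifs was found in 36 promoters. The ETS and YY1 motifs can overlap, since the first ends and the second begins with AAG, and 2 promoters held both. A match is a description of sequence, not of binding. The median log2 fold change of members with and without a motif was -0.27 (26 genes) and -0.23 (43 genes) for ETS, -0.15 (8 genes) and -0.26 (61 genes) for NRF1, -0.26 (8 genes) and -0.24 (61 genes) for YY1, and -0.26 (5 genes) and -0.25 (64 genes) for the E-box. These differences were not tested. The bases before the RefSeq start are given for Mrpl53 (chr6:83108858-83109107, plus strand) and Mrpl27 (chr11:94653541-94653790, plus strand). Both genes were lower in Onway without overlap. Of the members with a promoter entry and an unadjusted limma p under 0.05, only these held an ETS, NRF1 or YY1 motif there. Mrpl42 held the YY1 motif in the window that also covers the 50 bases after the start, but not in the 250 before it. The ETS motif, in capitals in either orientation, lay 59 and 16 bases before the RefSeq start of Mrpl53 and 55 bases before that of Mrpl27. In the GENCODE annotation the genes start at chr6:83109040 and chr11:94653767, inside the printed stretches. Both matches of Mrpl53 therefore lie within the annotated gene.
Mrpl53: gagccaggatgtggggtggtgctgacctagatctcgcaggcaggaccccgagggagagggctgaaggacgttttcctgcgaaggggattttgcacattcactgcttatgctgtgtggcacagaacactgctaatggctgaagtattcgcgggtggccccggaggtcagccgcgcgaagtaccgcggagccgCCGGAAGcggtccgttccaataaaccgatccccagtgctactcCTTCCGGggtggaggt
Mrpl27: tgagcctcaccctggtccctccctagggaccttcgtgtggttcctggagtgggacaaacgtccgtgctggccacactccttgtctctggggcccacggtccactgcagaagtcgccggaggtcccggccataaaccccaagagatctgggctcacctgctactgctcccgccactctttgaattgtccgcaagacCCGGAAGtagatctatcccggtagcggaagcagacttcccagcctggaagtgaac

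Transcripts were tested in the same way as genes, in an analysis added after the data were seen. The 78 genes had 371 transcripts in the table, of which 190 were among the 34807 transcripts tested. Of the 190, 138 (72.6%) had a negative log2 fold change, beside 44% of all transcripts, and the median was -0.18, beside 0.06 over all transcripts. At an unadjusted limma p under 0.05 there were 18 (9.47%), beside 11% of all transcripts tested, and 15 of them (7.89%) were lower in Onway, beside 5.45%. By limma, 0 passed at a lower and 1 at a higher level in Onway, beside 1.02% and 0.198% of all transcripts tested.

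That transcript was Mrps33-202, a short coding form of a small subunit gene with no bacterial counterpart (chr6:39801804-39810988, minus strand). It was at 5.21, 6.26 and 3.91 TPM in Onway 1, 2 and 3, against a listing at 0 in Control 4, 5 and 6. The full-length form, Mrps33-201, was at 25.4, 31.5 and 21.2 TPM in Onway 1, 2 and 3, against 27.4, 36.4 and 28.9 TPM in Control 4, 5 and 6. The short form thus rose to 16.9%, 16.5% and 15.6% of the gene's TPM in Onway 1, 2 and 3, while the gene total barely differed (log2 fold change 0.00, SE 0.20). Another short coding form, Mrps33-204, was at 0.12, 0.12 and 0.08 TPM in Onway 1, 2 and 3, against 0, 0.37 and 0.09 TPM in Control 4, 5 and 6. The log2 difference of Mrps33-202 was 2.60 (SE 0.23, limma adjusted p = 0.0043), a value that depends on the pseudocount of 1, so no fold is given. For the share, an exact two-sided permutation test over the 6 libraries gave p = 0.1, the smallest it allows with 3 against 3 and the value that any share without overlap gets. Leaving out any 1 library gave a limma adjusted p from 0.013 to 0.039. The authors' deposited group means contain a further library, and the value they leave for Mrps33-202 beyond the 3 libraries was 0 TPM in Onway and 7.19 TPM in Control, opposite to the direction in the 6 libraries.

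**Figure D5:**
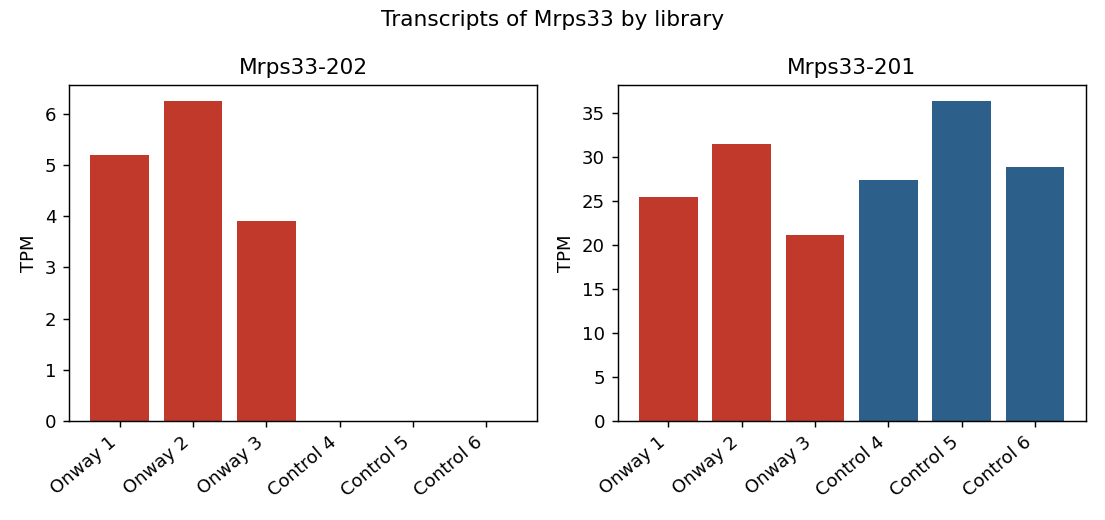
TPM of the short transcript Mrps33-202 (left) and the full-length Mrps33-201 (right) in each library, Onway in red and Control in blue, on different vertical scales. Mrps33-202 stands at 3.91 to 6.26 TPM in Onway and has no bar in Control, where it is listed at 0, while Mrps33-201 overlaps between groups.

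Mrps33-201 and Mrps33-202 share the start codon in exon 2 and part there. In Mrps33-201 exon 2 spans chr6:39805371-39805611 and in Mrps33-202 chr6:39805487-39805611, so the short form leaves out the last 116 bases of the exon. The annotated coding sequence is 318 bases (106 codons before the stop) in Mrps33-201 and 102 bases (34 codons before the stop) in Mrps33-202. In the short form 99 coding bases of exon 2 are followed by 3 of exon 3, AGA, and then by the stop codon TGA, as the joint printed here shows. The coding bases of exon 2 (GRCm38, chr6:39805371-39805585, minus strand) are shown with the bases left out of Mrps33-202 in capitals, followed by the 30 bases across the joint of exons 2 and 3 in each form, exon 3 in capitals, because this joint tells Mrps33-202 from Mrps33-201. Mrps33-204 starts in a longer version of this exon, also has 34 codons and shares the joint of Mrps33-202, which therefore does not tell these short forms apart.
Mrps33 exon 2: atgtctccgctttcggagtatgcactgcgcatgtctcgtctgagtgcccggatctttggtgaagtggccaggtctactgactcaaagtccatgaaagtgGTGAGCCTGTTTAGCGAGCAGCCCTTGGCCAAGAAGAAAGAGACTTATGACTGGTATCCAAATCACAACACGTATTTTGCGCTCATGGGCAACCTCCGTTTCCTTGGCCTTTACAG
Mrps33-202 joint: aagtccatgaaagtgAGATGAGCATCAGGA
Mrps33-201 joint: ccttggcctttacagAGATGAGCATCAGGA

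Other transcript shares differed less. Counting the 2 Mrps33 forms, 10 transcripts had shares of their gene that did not overlap between groups and differed by more than 4 percentage points. They were 2.70% of the members' 371 transcripts, beside 5% of the transcripts of all tested genes. Mrps30-201 made up 71.2%, 71.8% and 76.4% of its gene in Onway 1, 2 and 3, against 83.8%, 86.4% and 78.0% in Control 4, 5 and 6, with an assembled transcript of the same gene taking most of the rest. Mrpl33-201 made up 85.0%, 80.9% and 84.7% in Onway 1, 2 and 3, against 87.9%, 88.2% and 88.2% in Control 4, 5 and 6. Mrpl24-202 made up 22.3%, 21.5% and 22.6% in Onway 1, 2 and 3, against 23.3%, 30.3% and 29.0% in Control 4, 5 and 6. All 3 had a lower share in Onway, and since they were picked for shares without overlap, no test is given. Others of the 10 were Mrpl3-202 with a lower share in Onway, and Mrps24-203, Mrpl51-203 and Mrpl48-206 with a higher one.

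Transcripts annotated with a retained intron took 6.68%, 7.18% and 6.69% of the members' TPM in Onway 1, 2 and 3, against 6.11%, 5.70% and 5.74% in Control 4, 5 and 6. The groups did not overlap, at means of 6.85% ± 0.284 in Onway and 5.85% ± 0.227 in Control (SD, n = 3 each). In the other tested genes this share was 3.45%, 3.80% and 2.90% in Onway 1, 2 and 3, against 3.00%, 3.00% and 3.14% in Control 4, 5 and 6, with overlap. Protein-coding transcripts took 82.9%, 82.1% and 82.6% of the members' TPM in Onway 1, 2 and 3, against 83.8%, 83.8% and 83.9% in Control 4, 5 and 6. The means were 82.5% in Onway and 83.8% in Control. In the other tested genes the mean share was also lower in Onway, at 77.8% against 79.2% in Control, with overlap between groups. No test was made of these shares.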

How the data were processed

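Per the labels' protocols, RNA of mouse bone marrow was made into sequencing libraries with a SMARTER mRNA-Seq kit. The authors deposited 1 table of TPM for 158850 transcripts, of which 16416 carry MSTRG names (newly assembled), with a length for each transcript, per the file headers. The builds GRCm38 and mm10 come from the submitters' processing notes. The aligner and quantifier are not named in the labels or headers. TPM keeps no depth, so no counting interval or detection limit is given. The Onway columns carry another prefix than the titles and were matched to Onway 1, 2 and 3 by number. The deposited group means are means of 4 values, so a further library entered them; it was in no test here.

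Transcript TPM was summed per gene identifier. Genes averaging 1 TPM or more were compared with limma 3.58.1 (R 4.3.3; mean-variance trend, robust moderation, no covariates) on log2(TPM + 1), two-sided, with Benjamini-Hochberg adjustment over all 14192 genes and a threshold of 0.05. The script was tested on simulated data. Python 3.11.15 and pandas 2.3.3 made the summaries. Lengths are the deposited ones weighted by abundance, positions come from the GENCODE annotation of GRCm38, and promoters from RefSeq (GRCm38.p6). The text names, in each subunit, the 5 members with the lowest and the 5 with the highest log2 fold change, the 3 with the highest mean and the 3 with the largest pooled SD, the S18 paralogs, and the 3 genes with the smallest p in each other list. Mrpl12, Mrpl46, Mrpl23 and the genes of named neighbour pairs and transcripts were named beside these. The members, lists and tests were chosen with earlier results of these data known. The alternatives were another pseudocount, other filters on low values, other scalings, a plainer limma fit, the table without assembled transcripts, and leaving out libraries. Transcripts were fitted in the same way, after the data were seen.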

Additional observations from a re-analysis of the deposited data

How the results depend on the processing

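No paired analysis was possible because the groups share no replicate number (1 to 3 in Onway, 4 to 6 in Control). Under every alternative run, 0 of the 78 members passed by limma, including without each library in turn (0 to 0), while those with an unadjusted p under 0.05 numbered 1 without Control 5 and 22 with median-centred libraries. The members with a negative fold change numbered 64 (without both Control 4 and Onway 3, the library richest in haemoglobin in each group) to 77 (without Onway 2). Without each library in turn the median log2 fold change ran from -0.35 to -0.20 for the large and from -0.34 to -0.17 for the small subunit, and the difference of the sums (Onway minus Control) from -417 to -241 TPM and from -225 to -144 TPM. Over all genes 457 passed, against 203 at a mean of at least 5 TPM, 304 without both Control 4 and Onway 3 (207 lower and 97 higher, in place of 424 and 33) and 262 to 488 without 1 library, the lowest without Onway 2. For Mrps33-202 the adjusted p was 0.039 without both Control 4 and Onway 3. Members near 0 changed sign, none being called: without both these libraries Mrpl10 was at 0.10, Mrpl44 at 0.13, Mrpl35 at 0.19, Mrps18b at 0.019 and Mrps30 at 0.03 on the log2 scale. Median-centred, Mrpl35 was at -0.0050, Mrpl49 at -0.0066 and Mrps33 at -0.0068, and without haemoglobin Mrpl44 was at 0.0068. Without 1 library the ranges were -0.10 to 0.08 for Mrpl10, -0.26 to 0.11 for Mrpl33, -0.11 to 0.11 for Mrpl35, -0.050 to 0.15 for Mrpl43, -0.15 to 0.11 for Mrpl44, -0.47 to 0.10 for Mrpl45, -0.093 to 0.12 for Mrpl49, -0.24 to 0.013 for Mrps18b, -0.014 to 0.18 for Mrps2, -0.10 to 0.027 for Mrps30, -0.14 to 0.14 for Mrps33 and -0.11 to 0.046 for Mrps9. Members that kept their sign but moved by over 1.5 times were Mrpl34 (-0.28), Mrpl52 (-0.20), Mrps11 (-0.27), Mrpl47 (-0.035), Mrps16 (-0.12) and Mrps24 (-0.14) without Onway 1, Mrpl47 (-0.64) and Mrps24 (-0.48) without Onway 2, Mrps15 (-0.096) without Onway 3 and Mrps16 (-0.18) without Control 5. Without assembled transcripts Mrpl45 was at -0.60 and Mrps30 at -0.18. The adjusted p of mt-Co3 was 0.13 without haemoglobin, 0.058 with median-centred libraries, 0.085 with no filter, 0.055 at a mean of at least 5 TPM, 0.054 in limma without trend and robust moderation and 0.052 without both Control 4 and Onway 3, and that of Ndufa5 was 0.056 without haemoglobin. The cause of these shifts was not tested.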

Other observations

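Each deposited group mean, taken 4 times, exceeds the 3 libraries by the value of a further library, which was derived after the data were seen and entered no test. Over the large subunit genes it summed to 1704 TPM in Onway and 1822 TPM in Control, and over the small subunit genes to 856 TPM in Onway and 907 TPM in Control. It was lower in Onway for 48 of the 78 members, beside 73 by the means of the 3 libraries, and was not counted over all genes. For Mrpl42 it was 79.2 TPM in Onway and 72.2 TPM in Control. In the marker lists it summed to 20.7 TPM in Onway and 21.9 TPM in Control for skeletal muscle. For megakaryocytes and platelets it summed to 1104 TPM in Onway and 925 TPM in Control.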
